A study of Homo sapiens with 4 samples.

Results

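The ceramide synthases and the enzymes that begin and end sphingolipid metabolism were listed by name as 10 genes, CERS2, CERS4, CERS5, CERS6, SPTLC1, SPTLC2, DEGS1, SPHK1, SPHK2 and SGPL1. Of these, 8 were measured by probe sets that match no other gene, 18 probe sets in all, out of 19798 genes measured in that way. DEGS1 and SPHK2 had none and are not analysed here. The genes were chosen by their place in the pathway with differences between these arrays already known. Which differences were used is not stated, so all differences of the members were treated as known. The values of the members are therefore given as a description without a test.

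RNA was measured on 4 one-colour arrays, each of HCT-116 dicer- cells collected 24 h after transfection; HCT-116 is an established human line from a colon carcinoma, and dicer- marks a change in Dicer, which processes microRNA precursors. One array held cells transfected with the intact miR-124 duplex (G/P) and one held cells transfected with the segmented duplex (G10.12/P), whose guide strand is in segments, both at 10 nM. The other 2 arrays held cells that were mock-transfected. The dicer- label is shared by all groups and could not be checked, since unaltered cells were not analysed here. miR-124 is a microRNA of neurons that lowers messenger RNAs pairing with its seed, and the series asks whether that activity persists when the guide is segmented. Each duplex is a single array with no replicate. The SD given with a mock mean is the spread of 2 arrays that the labels do not tie to separate cultures, so it may be technical.

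Sphingolipids are membrane lipids built on a sphingoid base. Serine palmitoyltransferase makes the base from serine and a fatty acyl-CoA, and ceramide synthases then attach a second fatty acid whose length depends on the synthase, giving ceramides and, after further steps, sphingomyelin and glycosphingolipids. Breakdown releases sphingosine, which sphingosine kinases turn into sphingosine-1-phosphate, a signalling lipid, and sphingosine-1-phosphate lyase cleaves that product irreversibly.

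The median intensity over all 52377 probe sets was 46.3 with the intact and 45.3 with the segmented duplex, against 44.3 and 42.6 on the mock arrays. Of 8 measured markers of colon epithelium 5 lay above the median level of genes in mock cells, among them EPCAM, CDH1 and KRT19, while VIL1, CDX1 and CDH17 were low on all arrays. The summed intensity of 8 markers of other cell types was 1100 with the intact and 819 with the segmented duplex, against 649 and 563 on the mock arrays. Most of that sum came from COL1A1, at log2 levels of 9.76 and 9.21 with the intact and the segmented duplex, against 8.71 and 8.41 in mock cells. The part of other cell types in the values below was not tested.

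CERS2, the ceramide synthase that prefers very long chain fatty acids, was the member furthest from mock. Its 1 probe set had an intensity of 148 with the intact and 415 with the segmented duplex, against 1618 and 1537 on the mock arrays. On the log2 scale these levels were 7.21, 8.70, 10.66 and 10.59. Both duplex arrays lay far below the mock arrays, which were 0.07 apart. The mock level was 10.6-fold that with the intact duplex and 3.80-fold that with the segmented duplex, or log2 differences from mock of -3.41 and -1.92. Of all genes 0.0556% had a lower intact minus mock difference than CERS2. The level with the segmented duplex was 1.49 log2 units above that with the intact duplex. In RNA from whole cultures, fewer cells expressing a gene and less of its RNA per cell cannot be told apart.

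The other ceramide synthases did not follow CERS2. CERS4, which prefers long acyl chains shorter than those of CERS2, had a log2 level of 7.25 with the intact and 6.87 with the segmented duplex, against 5.83 and 5.89 on the mock arrays, by its brighter probe set. This is 2.63-fold and 2.02-fold the mock level. Its dimmer probe set read 4.84 and 4.91 with the intact and segmented duplex, against 4.53 and 4.37 in mock cells, so both probe sets stood above both mock arrays and differed in size (log2 differences with the intact duplex of 1.39 and 0.39). The mock levels of CERS4 lay below the median level of all genes (log2 6.76), and no detection call was used here, so its folds depend on how far the mock signal lies above background.

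CERS5, a synthase of long chain ceramides such as those made with palmitate, had a log2 level of 11.94 with the intact and 11.56 with the segmented duplex, against 10.86 on each mock array. Its second probe set gave 11.86 and 11.45, against 10.78 and 10.77 on the mock arrays. The probe sets thus gave nearly the same differences from mock, 1.08 and 1.08 with the intact and 0.70 and 0.67 with the segmented duplex. The mock arrays were 0.005 and 0.006 log2 units apart on these probe sets (SD 0.004, n = 2). Over all genes the median distance of the mock arrays was 0.12, so this SD is a poor guide to the spread. For CERS5 and for the brighter CERS4 probe set the order of the arrays was the reverse of that of CERS2, with the intact duplex highest, the segmented duplex next and mock lowest.

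CERS6, which like CERS5 makes long chain ceramides, was the member for which the segmented duplex stood further from mock than the intact duplex did on each of its probe sets. The brightest of its 3 probe sets had a log2 level of 10.87 with the intact and 10.46 with the segmented duplex, against 10.90 and 10.95 on the mock arrays. The other probe sets read 9.30 and 8.71, against 9.37 and 9.46 in mock cells, and 8.53 and 7.90, against 8.71 and 8.61. The intact array lay just under both mock arrays on all 3 probe sets, by 0.06, 0.12 and 0.13 log2 units from the mock mean, at mock SDs of 0.03, 0.06 and 0.07 (n = 2). The segmented array differed from the mock mean by -0.47, -0.71 and -0.76. The segmented minus intact difference was -0.41, -0.59 and -0.63, opposite in sign to that of CERS2.

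**Figure D1:**
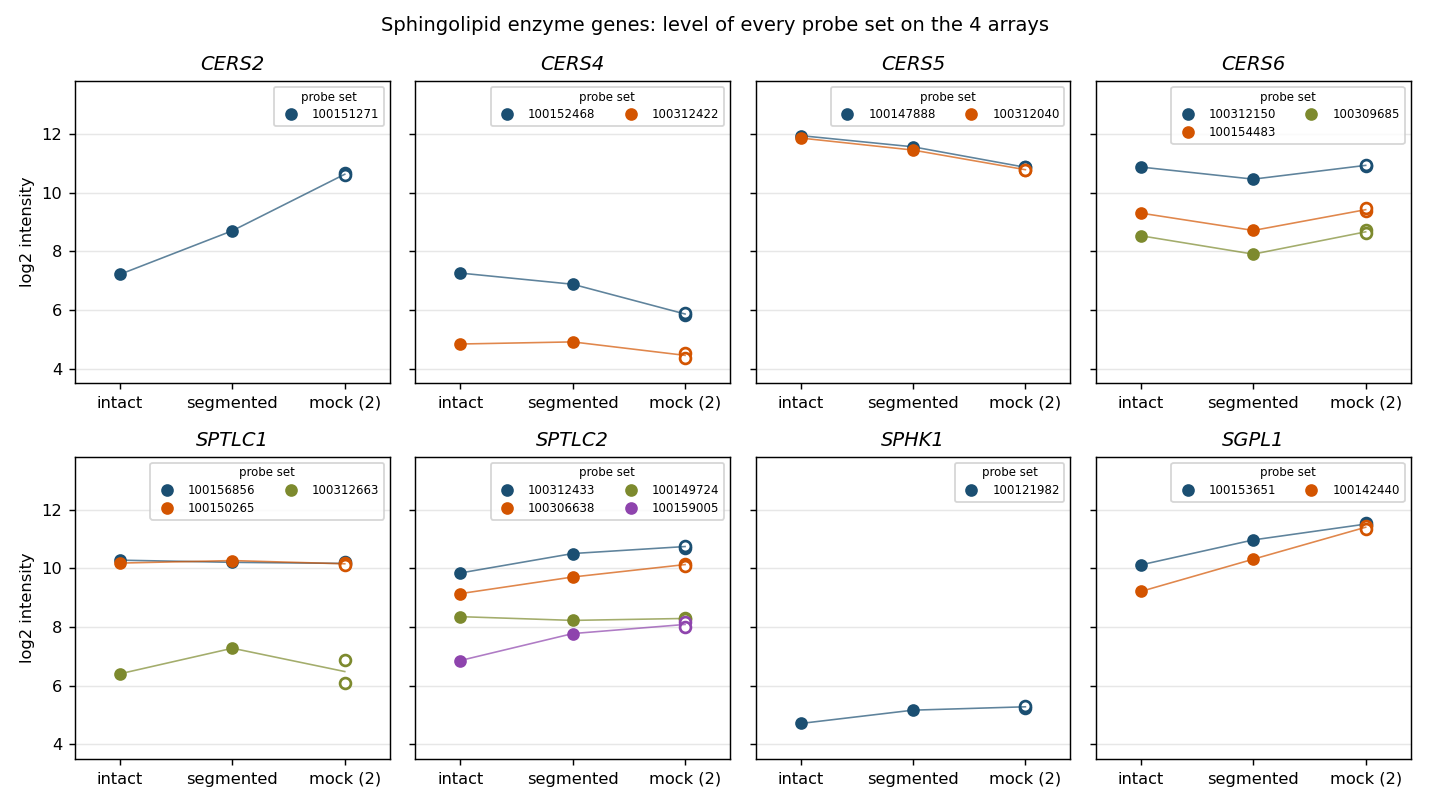
Log2 intensity of every probe set of the 8 measured genes, in 1 panel a gene, for the intact duplex array, the segmented duplex array and the 2 mock arrays (open points). Lines join each probe set's duplex values to its mock mean; CERS2 and SGPL1 are lowest with the intact duplex, CERS5 is highest there, and CERS6 is lowest with the segmented duplex.

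The entry enzyme of the pathway is a dimer of SPTLC1 with SPTLC2, its catalytic partner. SPTLC1 had a log2 level of 10.27 with the intact and 10.20 with the segmented duplex, against 10.20 and 10.13 on the mock arrays, by its brightest probe set, and 10.17 and 10.26, against a mock mean of 10.15 ± 0.04 (SD, n = 2), by the next. No difference from mock on these probe sets was above 0.11. The dimmest SPTLC1 probe set read 6.40 and 7.27, against 6.10 and 6.86 in mock cells, so the mock arrays themselves were further apart there than on any other probe set of the members, and little can be read from it.

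SPTLC2 was lower with the intact duplex on 3 of its 4 probe sets. The brightest read 9.84 with the intact and 10.50 with the segmented duplex, against 10.70 and 10.77 on the mock arrays, which are log2 differences from mock of -0.90 and -0.24. The next brightest had differences of -0.99 and -0.42, and the dimmest -1.23 and -0.31. The remaining probe set read 8.35 and 8.22, against 8.30 and 8.28, with differences of 0.06 and -0.07, and did not share the low intact value. On the 3 probe sets that did, the segmented duplex lay between the intact duplex and mock, 0.57 to 0.92 log2 units above the intact duplex.

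SGPL1, the lyase that removes sphingosine-1-phosphate from the pathway, was also lower with both duplexes on both of its probe sets. Its brighter probe set had an intensity of 1108 with the intact and 1998 with the segmented duplex, against 2975 and 2836 on the mock arrays. On the log2 scale the levels were 10.11 and 10.96, against 11.54 and 11.47. The second probe set read 9.21 and 10.31, against 11.44 and 11.35. The mock level was thus 2.62-fold and 4.55-fold that with the intact duplex by the brighter and the dimmer probe set, and 1.45-fold and 2.13-fold that with the segmented duplex. The direction was shared by both probe sets, while the size differed, with log2 differences of -1.39 and -2.19 for the intact duplex.

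SPHK1, a kinase that makes sphingosine-1-phosphate, read 4.71 with the intact and 5.16 with the segmented duplex, against 5.25 and 5.31 on the mock arrays, by its 1 probe set. Both duplex arrays lay below both mock arrays, with log2 differences of -0.57 and -0.12. All 4 values lie under the median level of genes, so the size of these differences is uncertain.

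**Figure D2:**
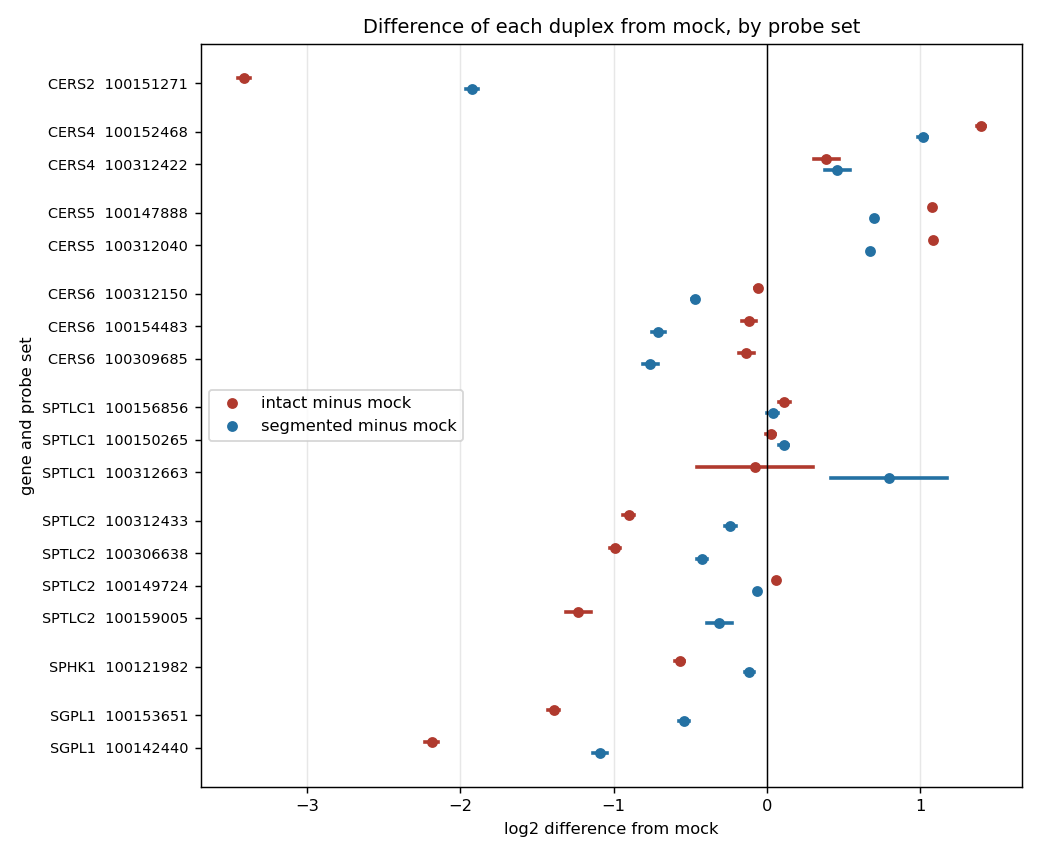
Log2 difference from mock for each of the 18 probe sets, for the intact duplex (upper mark of each pair) and the segmented duplex (lower mark). Points are differences from the mock mean, and bars span the differences from each of the 2 mock arrays; the differences with the intact duplex run from -3.41 (CERS2) to 1.39 (CERS4).

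Between the duplexes the members split by direction. With 1 probe set a gene (the brightest), CERS2, SGPL1, SPTLC2 and SPHK1 were higher with the segmented than with the intact duplex, by 1.49, 0.85, 0.66 and 0.45 log2 units. CERS4, CERS5 and CERS6 were lower with the segmented duplex, by 0.38, 0.38 and 0.41 log2 units, and SPTLC1 by 0.07. For CERS2, SGPL1, SPTLC2, SPHK1, CERS4 and CERS5 this placed the segmented array between the intact array and mock. For CERS6 it placed the segmented array furthest from mock. The segmented array of SPTLC1 also lay between, but 0.001 log2 units above the nearer mock array. Relative to mock, 5 of the 8 members lay below both mock arrays and 3 above both with the intact duplex, and likewise with the segmented duplex. Of all genes 39.8% lay below and 44.0% above both mock arrays with the intact, and 37.5% and 42.0% with the segmented duplex, so lying outside the mock pair is common. The brightest probe sets of the members had mock arrays at most 0.07 log2 units apart, but how far a repeat of either duplex would vary was not measured.

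A fit across all genes with limma, which lends the spread of the mock pair to the lone duplex arrays, called 24.9% of all genes with the intact duplex, 10.4% lower and 14.5% higher, at a Benjamini-Hochberg adjusted p of 0.05. Of the 8 members, 4 were called lower (CERS2, SPTLC2, SPHK1, SGPL1) and 2 higher (CERS4, CERS5); with a trended robust prior SPHK1 was no longer called, leaving 3 lower and 2 higher. With the segmented duplex 5.99% of all genes were called, 2.68% lower and 3.31% higher, and among the members CERS2 was called lower and CERS4 higher; 5 were called under the trended robust prior, without the dimmest 40% of genes, or after adding 16 before log2, CERS5, CERS6 and SGPL1 joining them. These counts are not evidence about the members, which were chosen with the same values known. The median intact minus mock difference of the members was -0.31 and that of all genes 0.02. For segmented minus mock the medians were -0.18 for the members and 0.01 for all genes. Both comparisons use the same mock arrays, so their values for a gene are not independent.

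Profiles most like that of CERS2 were found by the Euclidean distance between log2 levels over the 4 arrays, each gene centred on its own mean, among genes at or above the median level. The 5 nearest were the transcription factor gene MYB (distance 0.15), KDELR3 (0.18), the replication gene MCM10 (0.22), SLC35G1 (0.23) and the annexin gene ANXA5 (0.28). MYB had log2 levels of 6.33 with the intact and 7.75 with the segmented duplex, against 9.82 and 9.84 on the mock arrays. The 5 nearest to CERS4 were VAMP2 (0.03), CELSR2 (0.04), CFAP263 (0.05), the coagulation factor gene F8 (0.05) and AXIN2 (0.05). With 4 arrays many genes have similar profiles, and the distances are a description.

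**Figure D3:**
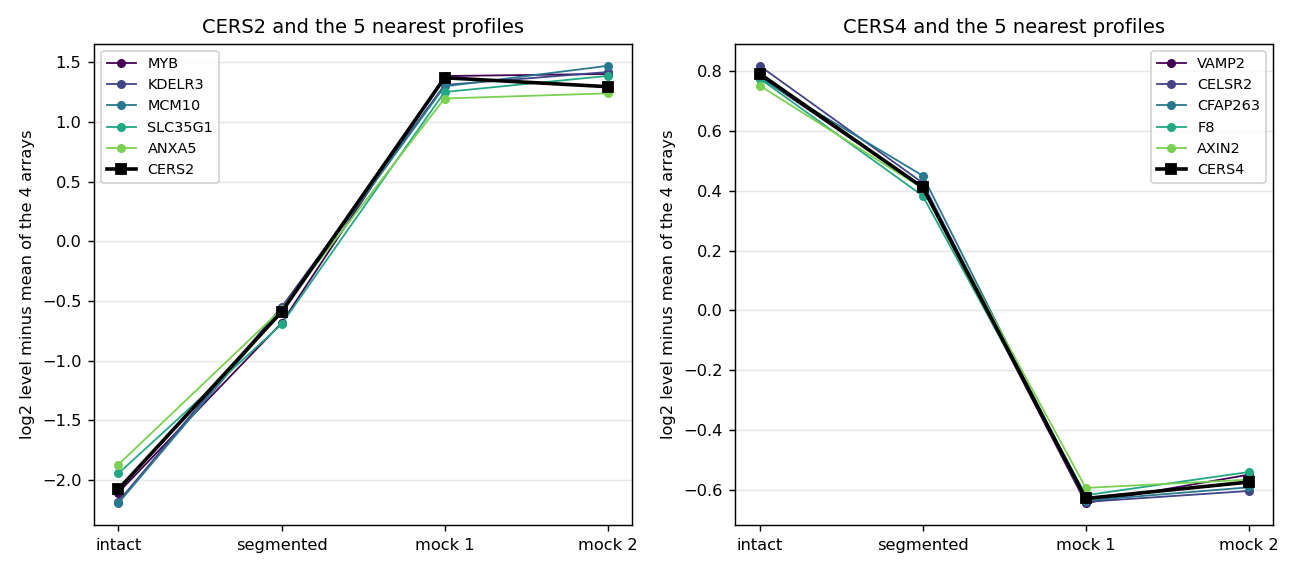
Log2 level minus the gene's mean over the 4 arrays, for CERS2 (left) and CERS4 (right) in black and their 5 nearest profiles in colour. CERS2 and its neighbours are lowest with the intact duplex and about level on the mock arrays; CERS4 and its neighbours run the other way, over a smaller range.

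A wider list of 77 other genes of sphingolipid metabolism had 68 genes with a probe set of their own. It was written from general knowledge of the pathway, but with earlier results of these data known. With the intact duplex 13 of these fell and 14 rose by limma's test, and 41 did not pass. Thus 39.7% of the list was called, where 24.9% of all genes were, 10.4% lower and 14.5% higher. With the segmented duplex 4 fell and 4 rose, or 11.8% of the list, where 5.99% of all genes were called, 2.68% lower and 3.31% higher. The list as such was not tested. Its genes were brighter than genes at large, as 53 of the 68 stayed when the dimmest 40% of genes were left out. In that fit 32 of the 53 were called with the intact duplex, where 6950 of 11879 genes were, a nearly equal share. With the segmented duplex 30 of the 53 were called, where 4781 of 11879 genes were. The part of level in the shares called was not tested. With each array centred on its median the split with the segmented duplex was 7 lower and 4 higher, and with the mean of all probe sets 7 and 3. The median difference of the 68 genes was 0.02 with the intact and 0.10 with the segmented duplex, against 0.02 and 0.01 for all genes. In the main fit the list thus held falls and rises in like number.

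Among the genes that lengthen fatty acids, ELOVL1, the elongase that supplies very long chain acyl-CoAs of the kind CERS2 uses, had a log2 level of 8.49 with the intact and 9.29 with the segmented duplex, against 10.88 and 10.72 on the mock arrays. It fell by 2.31 and 1.51 (limma SE 0.14, adjusted p = 0.00824 and 0.0354). ELOVL7 fell by 1.44 and 1.36 (limma adjusted p = 0.00964 and 0.0354). ELOVL5, an elongase of polyunsaturated fatty acids, fell by 1.53 with the intact duplex, and its difference of -0.55 with the segmented duplex did not pass (limma adjusted p = 0.0108 and 0.117). HACD2, a dehydratase of the elongation cycle, fell by 0.85 with the intact duplex and stood at 0.05 with the segmented duplex (limma adjusted p = 0.0204 and 0.835). Of 12 genes of this group 4 fell with the intact and 2 with the segmented duplex, and 0 rose with either. HSD17B12 (0.20) and HACD3 (-0.19) did not pass with the intact duplex.

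Ceramidases, which free sphingosine from ceramide, went both ways. ACER2 of the Golgi had log2 levels of 10.18 with the intact and 8.36 with the segmented duplex, against 7.17 and 7.36 on the mock arrays, and rose by 2.92 and 1.10 (limma SE 0.15, adjusted p = 0.00822 and 0.0434). ACER3 read 8.57 and 9.92, against 10.48 on each mock array. It fell by 1.91 with the intact duplex, and its difference of -0.56 with the segmented duplex did not pass (limma adjusted p = 0.00824 and 0.0816); all 9 of its probe sets were lower than the mock mean with either duplex. ASAH1, the acid ceramidase of lysosomes, did not pass (0.16 and 0.16), nor did ACER1 (-0.07 and 0.07).

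Around the entry step, SPTSSB, a small subunit of serine palmitoyltransferase, rose by 1.75 with the intact and 1.22 with the segmented duplex (limma adjusted p = 0.00885 and 0.0372). ORMDL2 and ORMDL3, which restrain that enzyme, rose with the intact duplex by 0.62 and 0.74, the first missing the threshold by the mean of its probe sets (limma adjusted p = 0.0922), while their differences with the segmented duplex (0.49 and 0.53) did not pass. The other small subunit gene, SPTSSA (0.12 and -0.04), and ORMDL1 (0.16 and 0.24) did not pass. In the group of 6 measured genes, 3 passed with the intact duplex, all of them higher, where 14.5% of all genes rose. The group as such was not tested. Neither CERS1 (-0.28 and -0.33) nor DEGS2 (0.57 and 0.25), from the group of ceramide synthases and desaturases outside the members, passed with either duplex.

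Among genes that carry ceramide onward, SAMD8, of the sphingomyelin synthase family, rose by 0.85 with the intact duplex, though 1 of its 2 probe sets went the other way and its mean over both (0.41) did not pass. CERK, which phosphorylates ceramide, rose by 0.67. The ceramide transfer protein gene CERT1 (-0.55 and -0.55) and SGMS2, a sphingomyelin synthase gene (-0.54 and -0.70), had lower values with both duplexes that did not pass (limma adjusted p between 0.0588 and 0.0992). The group listed as sphingomyelinases also held SMPDL3A and SMPDL3B, which are only sphingomyelinase-like by name. Of its 5 genes 2 fell with the intact duplex, SMPDL3A by 0.99 and SMPD3 by 0.60, where 10.4% of all genes fell. SMPD3 was thus the only sphingomyelinase gene by name that fell. SMPD3 fell from a low mock level of 4.19 ± 0.07 (SD, n = 2). Its call was lost with the mean of its probe sets, the trended robust prior or 16 added (limma adjusted p between 0.0639 and 0.131). SMPD1 (0.70) and SMPD2 (0.25) did not pass, and the group as such was not tested.

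Of 12 genes for phosphatases, transporters and receptors of sphingosine-1-phosphate and the aldehyde step after the lyase, 1 passed with the intact duplex, where 24.9% of all genes did. It was the transporter gene SPNS2, which fell by 0.71 from a low mock level of 4.21 ± 0.05 (SD, n = 2). With the segmented duplex SPNS2 stood 0.18 above the mock mean and did not pass. The brightest of that group that missed the threshold were PLPP2 (0.23) and ALDH3A2 (0.48).

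Glycosphingolipid genes also divided. UGT8, which makes galactosylceramide, had log2 levels of 8.85 with the intact and 9.06 with the segmented duplex, against 10.53 and 10.63 on the mock arrays. It fell by 1.73 and 1.53 (limma adjusted p = 0.00873 and 0.0354). GLTP, a glycolipid transfer protein gene, fell by 1.46 and 1.33 (limma adjusted p = 0.00978 and 0.0362). ST3GAL5, the synthase of the ganglioside from which most others are made, rose by 1.93 and 1.22 (limma adjusted p = 0.00824 and 0.0363). PLEKHA8, which transports glucosylceramide, rose by 0.57 and 1.02, but neither call held with the mean of its 3 probe sets (limma adjusted p = 0.416 and 0.0821). UGCG, the glucosylceramide synthase gene (-0.61), and B4GALT6 (-0.78) fell with the intact duplex, the second on 1 of its 2 probe sets and not by their mean (-0.05, limma adjusted p = 0.803), while B4GALT5 (-0.37) and B4GALNT1 (0.03) did not pass.

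Of 10 measured genes that take glycosphingolipids apart, most of them lysosomal, 6 rose and 1 fell with the intact duplex. Of all genes 14.5% rose and 10.4% fell, and the group as such was not tested. The 6 include GBA2 (0.74) and NEU3 (0.73), whose enzymes act outside lysosomes. NEU3 rose from a low mock level of 3.60 ± 0.16 (SD, n = 2). HEXA, a subunit of beta-hexosaminidase, rose by 0.85, and GLA, the alpha-galactosidase gene, fell by 0.95 (limma adjusted p = 0.0196 and 0.0168). The prosaposin gene PSAP (0.32) and the sialidase gene NEU1 (0.29) did not pass. With the segmented duplex 0 of the 10 passed, and the median difference of the group was 0.37, against 0.73 with the intact duplex. Of the 10, 5 had an unadjusted limma p under 0.05 with the segmented duplex. By limma's test of the difference itself, 0 of the 68 genes and 0 of all 19798 genes differed between the duplexes, while 15 of the 68 and 3273 of all genes had an unadjusted p under 0.05. This depended on the fit: without the dimmest 40% of genes, under the trended robust prior and after adding 16 before log2, in that order, 10, 12 and 7 of the other sphingolipid genes and 1850, 2412 and 1135 of all genes differed between the duplexes.

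**Figure D4:**
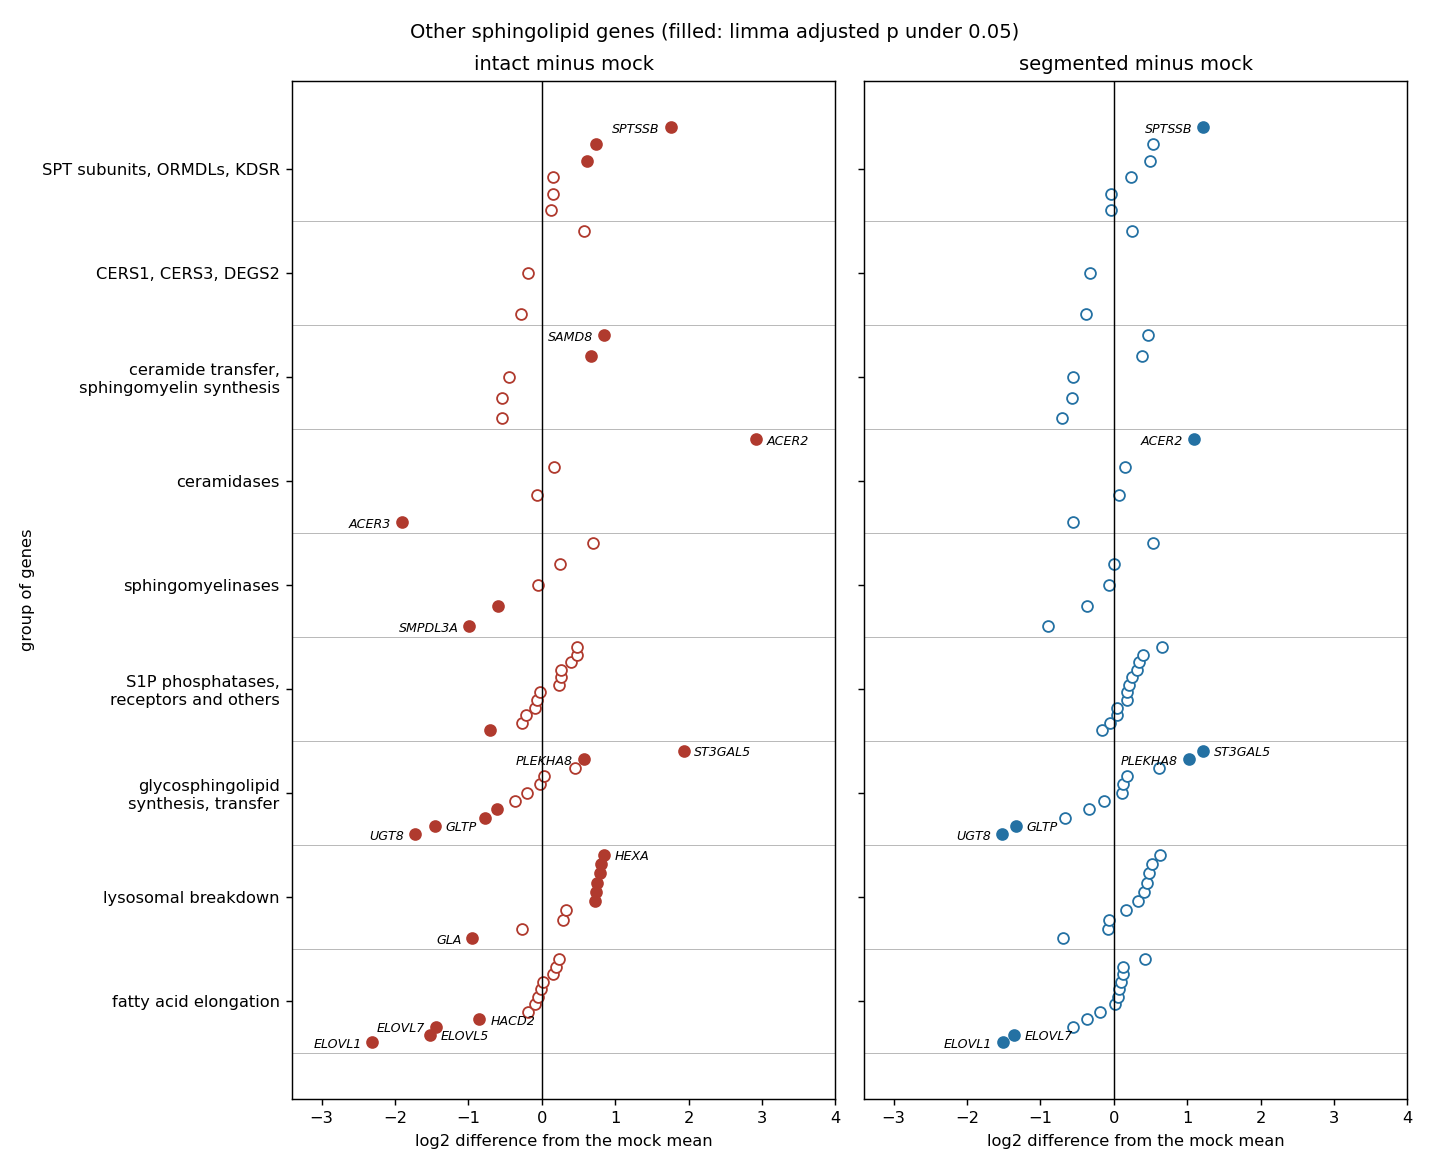
Log2 difference from the mock mean of 68 other sphingolipid genes, by group, with the intact duplex (left) and the segmented duplex (right). Filled points passed limma's test at an adjusted p of 0.05 and the larger of these are named; ACER2 (2.92) and ELOVL1 (-2.31) stand furthest out with the intact duplex.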

How the data were processed

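The deposited values are intensities on a linear scale, from 2.51 to 22268, with a value for each probe set on each array. The authors made them with RMA, per the submitters' processing notes, with no version stated; RMA includes quantile normalization, which would remove a change shared by most genes. Here they were turned into log2 with no offset. Names came from the platform annotation, with symbols brought up to date by Entrez identifier through RefSeq of GRCh38.p14 (35134 of 35184 probe sets matched). Probe sets of several genes (374) or with none listed (16819), out of 52377, named no gene.

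For the tests each gene was taken at its brightest probe set (by the mean of its 4 log2 values), in limma 3.58.1 (R 4.3.3) with means for the 3 groups. The mock pair gave the only residual degree of freedom; the prior had 2.89. Tested on simulated data of 19798 genes with 4000 of them changed in intact minus mock, the fit found 87.1% of the changes by 1 log2 unit and 98.2% of those by 2, with 4.22% false calls. With 200 changed it found 1% and 79%, with 6.98% false calls. The simulated duplex arrays had the same spread as the simulated mock arrays. The spread of a real duplex array was not measured, so these rates need not hold for the real calls.

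The members and lists were chosen with earlier results of these data known. Named were all members, the 15 other sphingolipid genes past the test with the largest changes, up to 2 per group that did not pass, and the 5 nearest profiles of the members furthest down and up. ORMDL2, ORMDL3, CERK, SMPD3, SPNS2, UGCG, B4GALT6, GBA2 and NEU3 were named after their values were seen.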

Additional observations from a re-analysis of the deposited data

How the results depend on the processing

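The members' differences kept their sign under all alternatives run (16 added before log2, the mean over probe sets, centring on the array median, quantile normalization once more, a trended robust prior in eBayes, the dimmest 40% of genes left out, and either mock array left out), except for SPTLC1, at -0.02 for segmented minus mock with centring and 0.29 for segmented minus intact with the mean of its probe sets. With the dimmest 40% left out, SPHK1 was not measured. The number of calls depended on the settings. With the trended robust prior 7809 genes were called with the intact duplex, against 4937. With the dimmest genes left out, the trended robust prior and 16 added, in that order, the segmented duplex had 4781, 5415 and 4265 genes called (against 1186), 30, 29 and 27 of the other sphingolipid genes (against 8), and 5, 5 and 5 members (against 2). For segmented minus intact the same settings called 1850, 2412 and 1135 genes, 10, 12 and 7 of the other sphingolipid genes and 3, 5 and 3 members, against 0 of each. The median of the other sphingolipid genes with the intact duplex was -0.0722 with centring, -0.0115 with the mean of all probe sets and 0.15 with the dimmest genes left out (fewer genes), against 0.02; without either mock array it lay between 0.04 and 0.07. Of the named genes past the test, PLEKHA8, SAMD8, ORMDL2, SMPD3 and B4GALT6 lost a call under at least 1 alternative, as given with their values; PLEKHA8 with the intact duplex was also lost with centring (limma adjusted p = 0.0665). Whether the calls of GBA2 and NEU3 held under these alternatives was not checked. Among the members SPHK1 lost its call with the intact duplex under the trended robust prior. The cause was not tested. Leaving out a mock array leaves no residual degrees of freedom, so those values have no test. No paired analysis was possible because the duplexes have 1 array each.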
